A study of Mus musculus with 3 samples.

Results

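The late envelope genes of ear epidermis were followed from basal to granular keratinocytes: every gene whose symbol starts with Lce (late cornified envelope) or Sprr (small proline-rich protein), with Lor, Ivl, Crct1 and Cnfn. They are 40 of the 31053 genes in the count tables, comprising 14 Lce1, 6 Lce3, Lce6a, 2 Sprr1, 11 Sprr2, Sprr3, Sprr4 and the 4 single genes. The study profiled ear epidermis of untreated C57BL/6N mice aged 9 weeks as 3 single-cell libraries, replicates 1 to 3 of a single group. The epidermis had been lifted off with dispase, and cells were taken with trypsin from its basal side and stored frozen, so cells that this step frees poorly may be under-represented. UMIs (unique molecular identifiers, each a captured transcript) were counted from transcript 5′ ends, so levels of different genes do not scale with transcript length, although capture can differ between genes. The labels do not tie a replicate to its own mouse, and p-values here measure only the spread between libraries, which may be technical. Libraries held 1108, 2477 and 2493 barcodes with 15926683, 24480473 and 28176712 UMIs, and they shared 3, 4 and 9 barcodes pairwise.

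The cornified envelope is a shell of cross-linked protein that replaces the plasma membrane when keratinocytes leave the granular layer and die. Involucrin, the product of Ivl, belongs to the early scaffold, the small proline-rich proteins bridge other envelope proteins, and loricrin, the product of Lor, is the main filler. The late cornified envelope proteins are added at the end of the process, and transglutaminases join all of these proteins together. Small proline-rich genes are also known for their induction in stressed or wounded skin.

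Cells that passed a floor of 500 detected genes and a ceiling of 10% for mitochondrial UMIs were each assigned to a layer by 6 genes that are not among the 40. A basal cell had at least 0.5% of its UMIs from Krt5 and Krt14, the keratins of the basal layer, and under 0.5% from Krt1 and Krt10, the keratins of the suprabasal layers. A spinous cell had at least 0.5% from Krt1 and Krt10 and under 3 UMIs of Flg2 and Hrnr, which encode filaggrin-type proteins of the granular layer. A granular cell had 3 or more UMIs of those 2 genes. Of 5340 cells kept, 2381 were basal, 1932 spinous and 803 granular, and 224 met no rule. Replicates 1 to 3 held 470, 944 and 967 basal, 334, 829 and 769 spinous, and 113, 326 and 364 granular cells. Median UMIs per cell rose with the layer, from between 7305.5 and 11816 in basal cells to between 18950.5 and 28293 in granular cells. All 6 other basal markers were highest in basal cells and all 6 other granular markers in granular cells, with sums of 2919 ± 126 and 9377 ± 1380 CPM there (UMIs of a gene per 1000000 UMIs; mean ± SD, n = 3). Of 6 spinous markers only Notch3 was highest in spinous cells. Krtdap, Dsc1, Dsg1a and Sbsn were highest in granular cells and Serpinb2 in basal cells, and the 6 summed to 16682 ± 886 CPM in spinous against 33045 ± 1724 in granular cells. The spinous group is therefore defined here by its keratins.

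All members but Cnfn lay within 938.79 kb of chromosome 3 (chr3:92080271-93019060, mm10, GENCODE M21), and Cnfn lay on chromosome 7 (chr7:25367620-25369724). In order along chromosome 3 came Lor, the 11 Sprr2 genes, Sprr1b, Sprr3, Sprr1a, Sprr4, Ivl, Lce6a, 13 Lce1 genes, the 6 Lce3 genes, Crct1 and the remaining Lce1 gene, Lce1m. All 40 were annotated as protein coding. Sprr2a1 and Sprr2a2 overlap on the same strand and share sequence at their transcript starts. Reads that match both cannot be assigned with certainty and may have gone uncounted, so their few UMIs may understate their levels. Lce3e and Lce3f also share most of their first 300 transcript bases with other members, at 80.1% and 81.1% of 100-base stretches, against 27.4% for Lce3d and 21.4% for Lce3c.

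Promoter sequences from RefSeq (GRCm38.p6) matched 37 of the 40 members, leaving out Crct1, Lce1f and Sprr2j-ps. The sequences below are the 200 bases before the start site, on the gene's strand, of the 3 members with the earliest onset (Sprr1a, Sprr1b and Ivl), the most abundant member (Lor) and 2 abundant Lce1 genes. Capitals mark TATAAA within 50 bases of the start, and TGANTCA, the motif bound by AP-1 factors, in which N is any base.
Sprr1a: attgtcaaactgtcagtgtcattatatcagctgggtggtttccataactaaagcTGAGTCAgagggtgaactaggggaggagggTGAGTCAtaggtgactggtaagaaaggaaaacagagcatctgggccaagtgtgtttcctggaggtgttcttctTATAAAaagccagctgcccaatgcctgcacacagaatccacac
Sprr1b: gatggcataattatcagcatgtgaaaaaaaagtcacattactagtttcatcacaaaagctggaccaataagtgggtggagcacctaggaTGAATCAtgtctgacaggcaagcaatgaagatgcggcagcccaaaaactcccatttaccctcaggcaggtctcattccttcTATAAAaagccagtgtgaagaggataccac
Ivl: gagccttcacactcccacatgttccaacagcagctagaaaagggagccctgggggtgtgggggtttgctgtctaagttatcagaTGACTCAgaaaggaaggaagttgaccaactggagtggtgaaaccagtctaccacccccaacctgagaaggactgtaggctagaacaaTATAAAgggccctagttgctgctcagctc
Lor: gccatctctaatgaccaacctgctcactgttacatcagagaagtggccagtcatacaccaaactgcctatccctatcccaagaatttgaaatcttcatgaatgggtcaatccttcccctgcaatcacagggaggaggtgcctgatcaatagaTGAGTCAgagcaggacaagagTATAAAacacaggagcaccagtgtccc
Lce1m: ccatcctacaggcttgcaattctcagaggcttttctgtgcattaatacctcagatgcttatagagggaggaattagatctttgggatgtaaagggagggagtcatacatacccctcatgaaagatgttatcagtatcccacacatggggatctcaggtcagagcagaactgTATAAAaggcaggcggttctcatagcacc
Lce1a1: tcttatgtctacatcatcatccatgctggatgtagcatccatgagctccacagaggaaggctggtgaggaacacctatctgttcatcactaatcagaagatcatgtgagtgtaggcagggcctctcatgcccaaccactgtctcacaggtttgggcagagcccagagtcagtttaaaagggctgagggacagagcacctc
Their positions are chr3:92485882-92486081 for Sprr1a, chr3:92438780-92438979 for Sprr1b, chr3:92573736-92573935 for Ivl, chr3:92083143-92083342 for Lor, chr3:93019062-93019261 for Lce1m and chr3:92648308-92648507 for Lce1a1, all on the minus strand.

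TATAAA lay within the 50 bases before the start in 14 of the 37 members (37.8%), against 2.63% of 32851 promoters in the same table. TGANTCA lay within 250 bases, with both strands searched, in 11 of 37 members (29.7%), against 6.75% of all promoters. The 11 were Lor, Ivl, Sprr1a, Sprr1b and 7 of 10 Sprr2 promoters, and none of 13 Lce1 and none of 6 Lce3 promoters held it. Among the members whose onset is ordered below, it was present in 4 of 5 that reached 1% of their granular level in spinous cells and in 1 of 17 later ones with a promoter, Lor. Sprr2h, 1 of the 4, passed 1% in replicate 1 only and was at 0.467% without it. Most of the 17 are Lce1 paralogs, so they are not separate cases. The 7 Sprr2 promoters with TGANTCA belong to paralogs too, and the same 7 held TATAAA, each at base -29 from the start. They enter both shares of members above and are not separate cases either. CACCC, a motif of KLF factors, was in 37.8% of members against 52.0% of all promoters. TGACNNNGC, the core of the antioxidant response element, which can overlap TGANTCA, was in 18.9% against 10.2%. These matches describe letters in a window, the split by onset was made after the levels were known, and binding was not measured.

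Summed over the 40 genes, envelope transcripts made up 7.59% ± 0.97 of all UMIs in granular cells (SD, n = 3), and 75174, 66533 and 85914 CPM in replicates 1 to 3. The same sum was 225.5 ± 50.2 CPM in spinous and 86.1 ± 42.1 CPM in basal cells. Lor alone gave 43.0% ± 6.5 of the granular sum, the 14 Lce1 genes 39.1% ± 6.1 and Crct1 14.7% ± 1.1. All 15 Sprr genes together gave 0.398% ± 0.363, which may miss uncounted reads of the overlapping Sprr2a1 and Sprr2a2. Of the 40, 20 reached a mean of 100 CPM in a layer. Each of them did so in granular cells alone, so this floor favours genes with a granular excess. Replicate 3 had the highest granular value for 17 of the 20, and replicate 2 the lowest for 13.

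Lor was counted at 36768, 29376 and 30923 CPM in granular cells of replicates 1 to 3. In spinous cells it was at 18.7, 29.8 and 40.4 CPM, and in basal cells at 27.9, 38.8 and 61.4 CPM. Granular values stood apart from the rest, while spinous and basal values overlapped. Its level rose 1580-fold from spinous to granular cells (log2 10.63 ± 0.22 SE, edgeR adjusted p = 3.98e-17) and was not called between basal and spinous cells (log2 -0.19 ± 0.19 SE, edgeR adjusted p = 0.39). Immune cells of the same libraries, which should lack loricrin, held 189, 63.9 and 129 CPM of Lor. One UMI was worth 94.7 CPM in the 3 immune cells of replicate 1, and 5.81 and 7.16 CPM in the 34 and 27 of replicates 2 and 3. With every cell thinned to 2000 UMIs, 25.9% ± 11.7 of immune cells, 9.07% ± 4.53 of basal, 5.97% ± 2.74 of spinous and 72.1% ± 7.8 of granular cells had a Lor UMI. Unthinned, with median UMIs of 3244 to 5102 in immune cells, the shares were 36.2%, 29.2%, 32.0% and 86.8%. In each library Lor was lower in basal and spinous cells than in immune cells, whose value rests on 2, 11 and 18 UMIs. Scaled to total UMIs instead of TMM factors, Lor was lower in spinous than in basal cells (log2 -0.51, edgeR adjusted p = 0.022).

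Crct1, which encodes a small cysteine-rich protein next to the Lce genes, had 10467, 10612 and 12112 CPM in granular cells. Its spinous values were 4.0, 7.1 and 8.5 CPM and its basal values 4.5, 8.2 and 11.5 CPM. The layers below the granular one overlapped, and the rise into granular cells was 2387-fold (log2 11.22 ± 0.16 SE, edgeR adjusted p = 5.94e-19). In thinned granular cells 47.7% ± 2.9 had a Crct1 UMI, against 1.09% ± 0.58 of spinous, 1.87% ± 0.47 of basal and 5.04% ± 6.23 of immune cells.

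The Lce1 genes encode short proteins rich in cysteine, glycine and proline that are laid onto the maturing envelope. Together they had 26123, 24275 and 39548 CPM in granular cells, 7.9, 22.5 and 15.9 in spinous cells and 8.4, 14.9 and 28.1 in basal cells. Lce1m led the family with 7105, 9246 and 9181 CPM in granular cells, followed by Lce1a1 with 3964, 3396 and 5807. Lce1k was the least abundant with 147, 23.3 and 81.4 CPM. Of the 13 Lce1 genes with at least 100 CPM, 11 were highest in replicate 3 and 11 lowest in replicate 2, so the paralogs varied together between libraries. The exceptions at the low end were Lce1m and Lce1h, both lowest in replicate 1.

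The other abundant Lce1 genes formed a graded series in granular cells. Lce1b had 2975, 2294 and 4925 CPM, Lce1c had 2991, 2435 and 4298, and Lce1d had 1812, 1646 and 4043. Lce1l had 1971, 1500 and 3095 CPM, Lce1a2 had 1629, 1315 and 2065, and Lce1i had 1128, 648 and 1732. Lce1g had 675, 417 and 1231 CPM, Lce1e had 686, 468 and 1141, and Lce1h had 468, 475 and 1121. Neighbours in this series overlapped between libraries, whereas Lce1f (380, 352 and 685 CPM) and Lce1j (193, 60.9 and 142 CPM) sat at its lower end. Each had means under 4 CPM in basal and spinous cells.

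Lce3 genes, which in skin are better known from repair and inflammation, were low or silent apart from Lce3c. Lce3e and Lce3f share most of their transcript starts with other members, so their UMIs cannot be assigned with certainty. Some of their reads may have gone uncounted, and their levels are less sure. Lce3c had 190, 300.3 and 530.2 CPM in granular cells, and in spinous cells 1.27, 0.0960 and 0.183 CPM. Lce3e had 6.3, 11.7 and 33.1 CPM in granular cells and no UMI in either other layer, which puts it at least 186-fold higher in granular than in spinous cells (floor of 3 counts over the layer, counting error only). Lce3d and Lce3f had 19 and 5 UMIs in all granular cells together, and Lce3a and Lce3b had none in any layer, which allows up to 0.181 CPM in granular cells. Lce6a, a more distant relative between Ivl and the Lce1 genes, had 209, 185 and 393 CPM in granular, and 0.79, 1.44 and 1.10 in spinous cells.

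**Figure D1:**
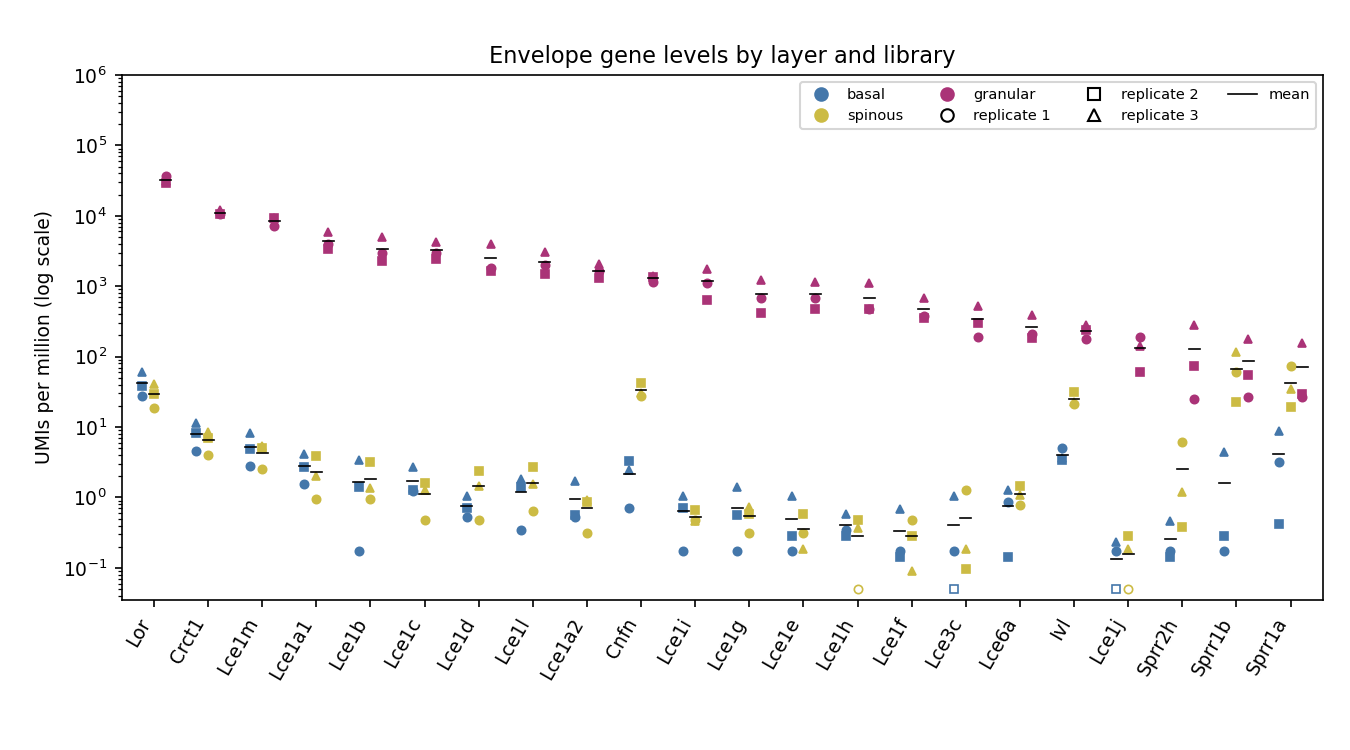
CPM (log axis) of the 20 genes that reached 100 CPM in a layer, and of Sprr1b and Sprr1a, in basal, spinous and granular cells; symbols are the 3 libraries, lines their means, and open symbols at the bottom mark libraries with 0 UMIs. Granular values of Lor to Sprr2h lie above the other layers, Cnfn and Ivl also separate spinous from basal cells, and spinous and granular values of Sprr1b and Sprr1a overlap.

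Cnfn, which encodes the envelope protein cornifelin, had a different course. It had 1132, 1371 and 1396 CPM in granular cells, 27.6, 41.6 and 30.8 in spinous cells and 0.7, 3.3 and 2.4 in basal cells, and no 2 layers overlapped. It rose 18.7-fold from basal to spinous cells (log2 4.22 ± 0.20 SE, edgeR adjusted p = 4.62e-12) and 56.0-fold from spinous to granular cells (log2 5.81 ± 0.12 SE, edgeR adjusted p = 4.27e-17). None of 60 immune cells kept a Cnfn UMI after thinning, which allows a share of up to 5%, whereas 4.58% ± 0.90 of spinous and 75.7% ± 3.2 of granular cells did. Before thinning, 0.98% ± 1.70 of immune, 16.7% ± 0.54 of spinous and 96.6% ± 2.8 of granular cells had one.

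Ivl had 180.5, 236.7 and 277.0 CPM in granular cells, 21.6, 31.0 and 23.0 in spinous cells and 5.1, 3.4 and 3.6 in basal cells. The 3 layers again did not overlap. Ivl rose 8.06-fold at the first step (log2 3.01 ± 0.21 SE, edgeR adjusted p = 9.48e-10) and 13.2-fold at the second (log2 3.72 ± 0.13 SE, edgeR adjusted p = 2.49e-14). Involucrin is classed with the early envelope proteins, and its transcript was highest here in granular cells.

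The 2 Sprr1 genes, under 100 CPM in both layers and named after their values were seen, rose more at the first step in the main fit. For Sprr1a that difference did not hold without replicate 1 or without stress-keratin cells, as given below. Sprr1b had 60.1, 22.7 and 115.7 CPM in spinous cells, 26.8, 55.3 and 180.1 in granular cells and 0.2, 0.3 and 4.4 in basal cells. Sprr1a had 73.2, 19.1 and 35.0 CPM in spinous, 26.8, 29.8 and 157.8 in granular and 3.1, 0.4 and 8.7 in basal cells. Both were above basal cells in every suprabasal value, and in replicate 1 both were lower in granular than in spinous cells. For Sprr1a, 1 spinous cell held 369 of that library's 461 spinous UMIs. In replicate 1 cells with under 3 UMIs of the stress keratins Krt6a, Krt6b and Krt16, Sprr1a had 10.6 CPM in spinous and 18.0 in granular cells. Sprr1b had 27.2 and 17.4 CPM there. From basal to spinous cells Sprr1b rose 48.3-fold (log2 5.59 ± 0.44 SE, edgeR adjusted p = 3.68e-09) and Sprr1a 13.2-fold (log2 3.72 ± 0.57 SE, edgeR adjusted p = 1.96e-05). From spinous to granular cells edgeR called both higher, Sprr1b at log2 0.94 ± 0.25 SE (adjusted p = 0.00321) and Sprr1a at log2 1.23 ± 0.41 SE (adjusted p = 0.013). Neither of these 2 calls held when libraries were scaled to total UMIs (edgeR adjusted p = 0.142 and 0.111), without the library term (edgeR adjusted p = 0.17 and 0.0741) or with DESeq2 (adjusted p = 0.377 and 0.322), and Sprr1a was at log2 0.09 without replicate 3 (edgeR adjusted p = 0.79).

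Sprr2 genes were scarce. Sprr2h was the only one past 100 CPM, with 25.0, 74.3 and 284.2 CPM in granular cells, 6.04, 0.384 and 1.19 in spinous cells and 0.17, 0.14 and 0.46 in basal cells. Sprr2d followed with 18.1, 3.2 and 63.1 CPM in granular cells, and 1 UMI in all spinous cells, a ratio of 910 with a counting interval of 163 to 36001. Sprr2a1, Sprr2a3 and Sprr2b were low everywhere and highest in basal cells of replicate 3, at 3.25, 5.57 and 1.51 CPM. The counts of Sprr2a1 may be too low, because it overlaps Sprr2a2. The other Sprr2 genes had at most 57 UMIs in a layer, Sprr4 had 3 UMIs, all in granular cells, and Sprr3, a gene of the esophagus and other wet epithelia, had none.

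In the fit across all genes, 26 members had enough counts to be tested, 15 of them only through the granular cells, so the counts that follow describe those genes and not the 40. From basal to spinous cells, 5 were called higher and 0 lower at an adjusted p of 0.05 (edgeR). Of all 11339 genes tested, 33.8% were called higher and 31.7% lower, 65.5% in either direction. Besides Sprr1b, Cnfn, Sprr1a and Ivl, the fifth was Lce1d at log2 1.32 ± 0.54 SE (edgeR adjusted p = 0.0387), with 0.52, 0.71 and 1.04 CPM in basal and 0.48, 2.40 and 1.46 in spinous cells. That call was lost in 7 of 16 alternatives and turned to log2 -0.24 with cells thinned after the layers were set, whereas the calls of the other 4 held in all 16. From spinous to granular cells 25 were called higher and 0 lower (edgeR; of all genes 34.4% higher and 36.9% lower, 71.3% in either direction), and the exception was Sprr2a3 at log2 0.73 ± 0.48 SE (edgeR adjusted p = 0.185). From basal to granular cells 25 were called higher and 0 lower (of all genes 41% higher and 42.8% lower, 83.8% in either direction). Scaling to total UMIs moved the median of all genes by log2 -0.32, -0.51 and -0.84 in these 3 comparisons, and the split of higher to lower genes from 3829 and 3595 to 2345 and 5546, from 3906 and 4179 to 2435 and 6457, and from 4650 and 4857 to 2888 and 7155. The median change over the 26 was log2 10.86 from spinous to granular cells, or 10.71 with the 2 genes absent from spinous cells at their lower bound, against -0.11 over all genes tested. Entry through granular cells favours a rise into that layer, so neither this median nor the 25 can be weighed against all genes. The 11 members that pass without granular cells changed by log2 0.73 (Sprr2a3) to 11.44 (Lce1m) at that step, and all but Sprr2a3 were called higher.

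The Lce1 genes other than Lce1k rose between log2 9.80 and 11.90 from spinous to granular cells. In immune cells the Lce1 sum was at 0, 11.6 and 57.3 CPM (10 UMIs in all), against 7.9, 22.5 and 15.9 in spinous cells, so the spinous level in these folds is of the order found in cells that should lack the genes. Lce1k had no spinous UMI and was at least 682-fold higher in granular cells. Lce3c rose 1268-fold (log2 10.31 ± 0.26 SE, edgeR adjusted p = 3.34e-16) and Lce6a 334-fold (log2 8.38 ± 0.16 SE, edgeR adjusted p = 1.25e-17). Sprr2h rose at log2 6.53 ± 0.50 SE (edgeR adjusted p = 2.25e-09), but 1 spinous cell of replicate 1 held 37 of its 55 spinous UMIs. The Sprr2h change was log2 8.37 without replicate 1, 4.81 without replicate 3 and 8.96 without stress-keratin cells, past the threshold each time. Lce3c, Lce6a, Sprr2h and all Lce1 genes but Lce1a1, Lce1b, Lce1l and Lce1m entered the fit only through their granular counts. That entry favours a rise at this step, so their p-values add no support to it.

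Whether a gene rises more at the first or at the second step was tested as the difference of the 2 log2 changes. The second rise was larger in 20 members (edgeR; 21.7% of all genes were called in this direction) and the first in 2, Sprr1b and Sprr1a (30.7% of genes; 52.4% in either direction). Of the 26 members tested, 15 entered only through the granular cells, and this entry favours a larger second rise. The 20 can therefore not be weighed against the share over all genes. For Sprr1b the second change was smaller by log2 -4.65 ± 0.61 SE (edgeR adjusted p = 5.68e-06), and for Sprr1a by log2 -2.50 ± 0.85 SE (edgeR adjusted p = 0.0209). The Sprr1b difference stayed past the threshold in all 16 alternatives. The Sprr1a difference did not without replicate 1 (log2 -0.88, edgeR adjusted p = 0.268), without stress-keratin cells (log2 -0.68, edgeR adjusted p = 0.165), with DESeq2 (log2 -3.32, adjusted p = 0.0582) or without the library term (log2 -2.18, edgeR adjusted p = 0.178). Cnfn leaned to the second step by log2 1.58 ± 0.34 SE (edgeR adjusted p = 0.000893). That call was lost with cells thinned after the layers were set (log2 1.56, edgeR adjusted p = 0.102) and with cells thinned before (log2 -0.18, edgeR adjusted p = 0.763). Lor leaned to the second step by log2 10.81 ± 0.36 SE (edgeR adjusted p = 2.96e-13). For Ivl the difference was log2 0.71 ± 0.33 SE and was not called (edgeR adjusted p = 0.0781), nor was that of Sprr2h, at log2 3.37 ± 2.81 SE (edgeR adjusted p = 0.333).

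**Figure D2:**
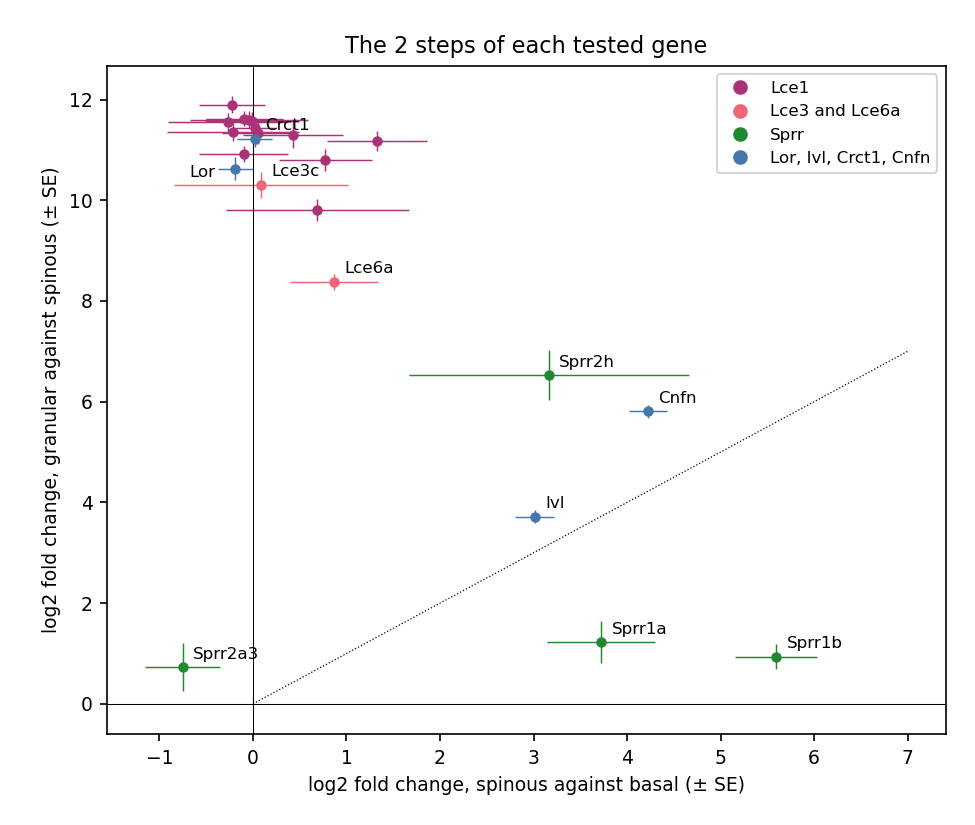
Log2 fold change from basal to spinous cells (horizontal) against that from spinous to granular cells (vertical) of 23 tested genes, with standard errors from edgeR; Lce3e, Lce1k and Sprr2d, with 0 or 1 UMIs in a layer, are not drawn. Sprr1a and Sprr1b lie below the dotted line of equal change, Ivl lies near it, and the Lce1 genes, Lor and Crct1 lie between -0.26 and 1.32 on the horizontal axis and between 9.80 and 11.90 on the vertical one.

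The order of onset was described by the spinous level as a percent of the granular level of the same library, for the 24 members with at least 20 granular UMIs in every library. Sprr1a came first at 119.8% ± 134.4, with 273.1%, 64.2% and 22.2% in replicates 1 to 3, and Sprr1b next at 109.8% ± 99.5, with 223.9%, 41.1% and 64.2%. Their ranges overlapped, so the order of the pair is not resolved. In replicate 1 a single spinous cell held 369 of the 461 spinous UMIs of Sprr1a, and 1 held 154 of the 378 of Sprr1b. Ivl followed at 11.1% ± 2.5, with 12.0%, 13.1% and 8.3%. Sprr2h averaged 8.36% ± 13.66, but its values were 24.1%, 0.516% and 0.418%, and 1 spinous cell held 37 of the 38 UMIs behind the first of these. Without replicate 1 the means were 43.2% for Sprr1a, 52.7% for Sprr1b and 0.467% for Sprr2h. Cnfn was at 2.56% ± 0.43, with 2.44%, 3.04% and 2.21%, below Ivl in every library.

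The remaining 19 members were under 1% and could not be ordered among themselves. Their spinous levels ran from 0 to 0.479% of the granular level with a median of 0.0618%, and their basal levels had the same median of 0.0618%. Lor was at 0.0944% ± 0.0403 in spinous against 0.135% ± 0.061 in basal cells, Crct1 at 0.0584% against 0.0719% and Lce1m at 0.0495% against 0.0600%. Lce6a had the highest value of the 19, with 0.38%, 0.779% and 0.279% in spinous and 0.417%, 0.0768% and 0.324% in basal cells, which overlap.

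**Figure D3:**
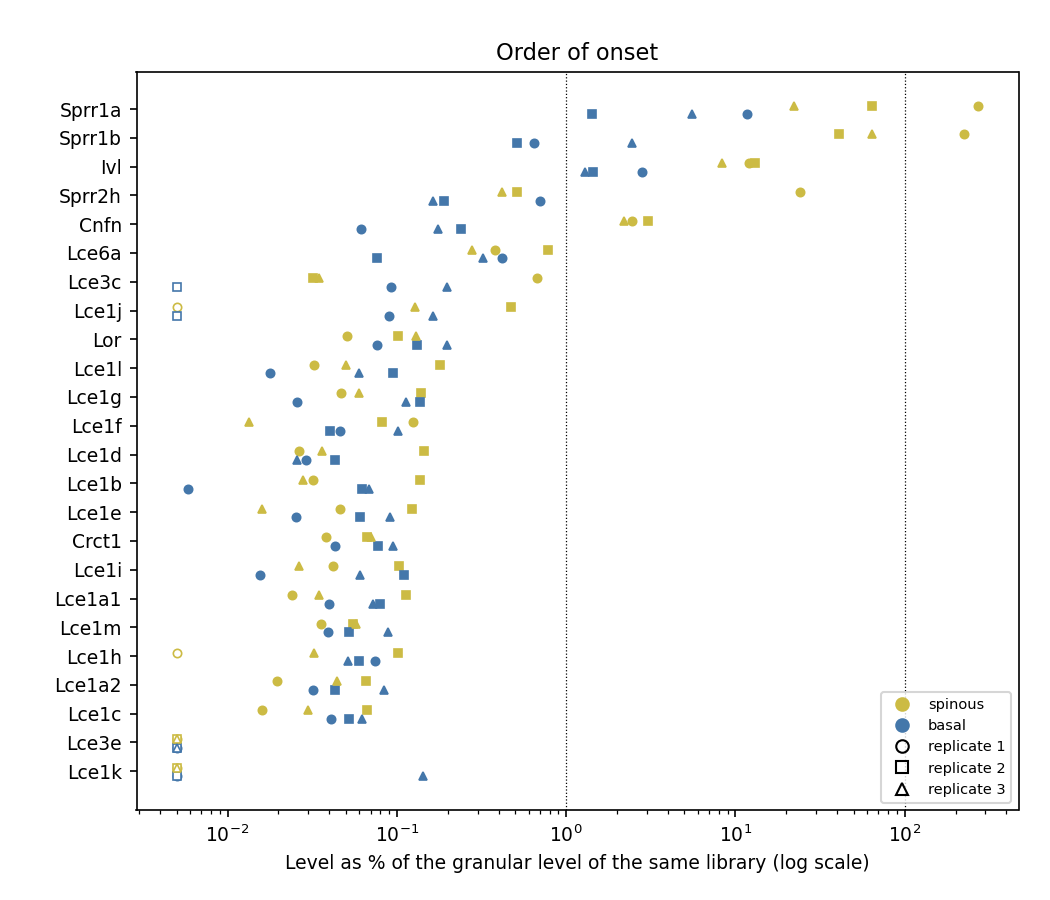
Spinous and basal levels as a percent of the granular level of the same library (log axis) for 24 genes, ordered from below by the spinous mean; symbols are libraries, open symbols at the left mark 0 UMIs, and dotted lines mark 1% and 100%. Sprr1a, Sprr1b, Ivl and Cnfn lie to the right of 1% in every library, Sprr2h in 1 of 3, and in the other genes spinous and basal points mix.

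A finer order came from 7 steps: basal cells (B), spinous cells in 3 equal parts by their Krt1 and Krt10 share (S1 to S3) and granular cells in 3 equal parts by their Flg2 and Hrnr share (G1 to G3). A granular part held 37 or 38 cells in replicate 1 and 108 to 122 in the others. Onset was the first step at 10% of a gene's highest step, as the median of 3 libraries. Sprr1a started at S1, Sprr1b at S2, Ivl at S3 and Cnfn at G1, and the other 20 members at G2. Of these 4, Ivl and Cnfn started at the same step in every library, while Sprr1a ranged from S1 to S2 and Sprr1b from S1 to S2. Split by 6 other late genes (Flg, Casp14, Asprv1, Kprp, Cdsn and Klk7) instead, Cnfn again started at G1 and Lor and Lce6a at G2, but 18 members had a median onset of G3 and Sprr1a of S2, level with Sprr1b. Among the 18, every Lce1 gene and Crct1 ranged from G2 to G3 over libraries and Sprr2h from S2 to G3, and Lce3c and Lce3e started at G3 throughout. The order also depended on the threshold: at 50% of the highest step on the first axis, Sprr1b started at S3, Ivl at G1, Sprr1a at G2 (S1 to G3 over libraries), and Cnfn, Lor and Crct1 at G3.

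Along these steps Ivl had 40.8 ± 13.4 CPM at S3, 227.8 ± 32.7 at G1, 299.9 ± 64.3 at G2 and 155.2 ± 79.5 at G3, and G2 was its highest step in all 3 libraries. Cnfn climbed from 68.9 ± 14.2 CPM at S3 through 406.8 ± 62.9 and 1253 ± 226 to 2425 ± 174 at G3. Sprr1b was highest at S3 and G1, with 128.4 ± 126.4 and 126.7 ± 86.3 CPM, and had 56.0 ± 52.1 at G3. The spread between libraries was as large as these Sprr1b means, so a fall towards G3 is not resolved.

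Lor went from 30.2 ± 9.3 CPM at S3 to 930 ± 996 at G1, 30985 ± 2960 at G2 and 71790 ± 11929 at G3. Its G3 level was 256%, 237% and 201% of its G2 level in replicates 1 to 3. Crct1, Cnfn and Sprr2h were likewise higher at G3 than at G2 in every library. Lce1 genes summed had 909 ± 1507 CPM at G1, 55675 ± 21786 at G2 and 35688 ± 4287 at G3. Lower at G3 than at G2 in every library were 10 members, namely Ivl and 9 Lce1 genes, and the other 10 differed between libraries. At G3 the 40 genes together reached 134857 ± 14785 CPM.

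The placing of Lor before the Lce1 genes depended on the axis. With the 6 other late genes, Lce1 summed had 65.4 ± 51.4, 6301 ± 9310 and 85551 ± 13106 CPM at G1, G2 and G3, and Lor had 1104 ± 276, 20959 ± 3507 and 78619 ± 16196. On this axis every Lce1 gene was highest at G3, and Lor already had 19795, 18182 and 24899 CPM at G2, where Lce1 summed had 754, 1099 and 17049. Steps describe groups of cells ranked by other transcripts and not time.

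**Figure D4:**
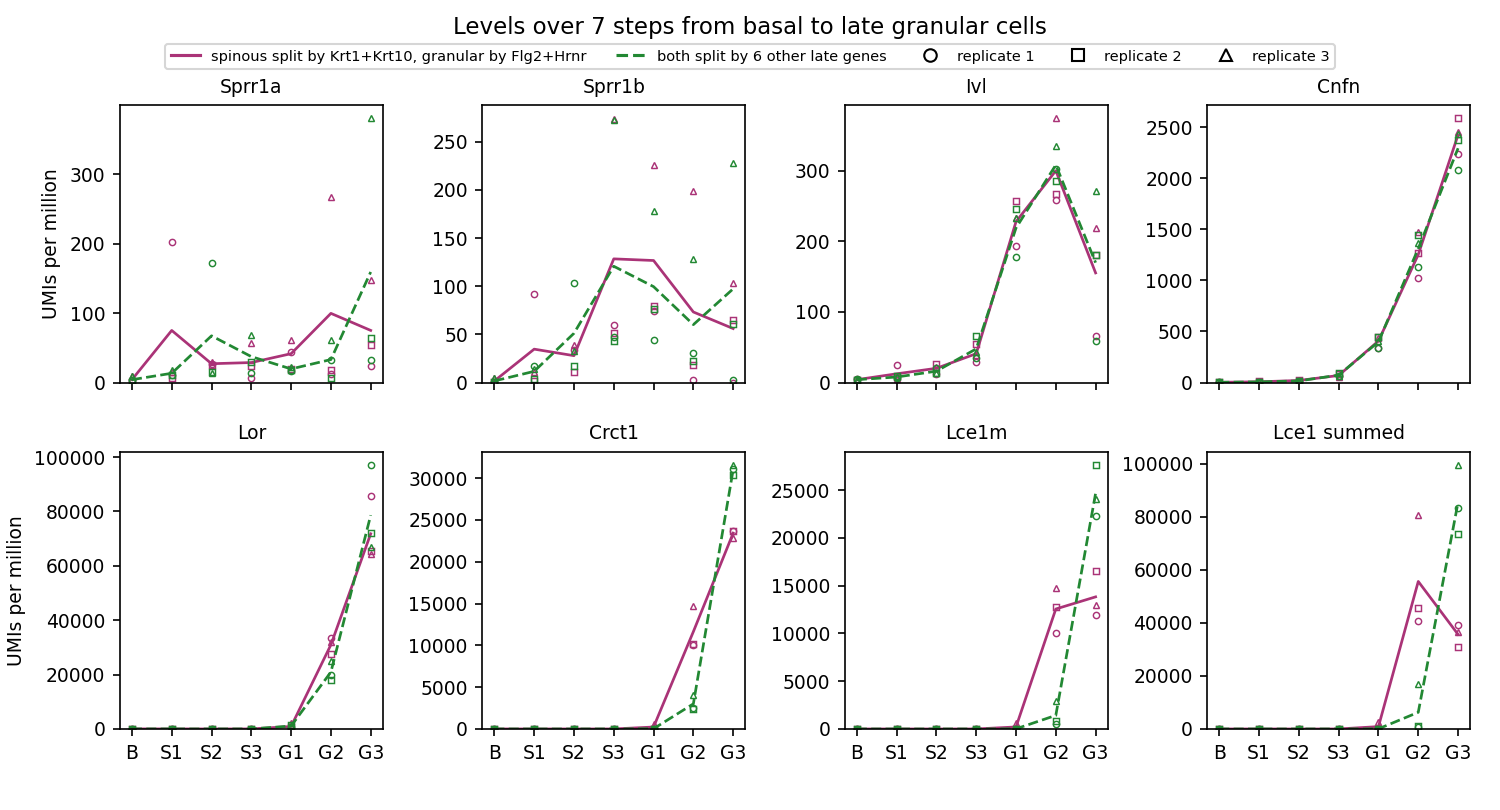
CPM of 7 genes and of the Lce1 sum over 7 steps from basal (B) through spinous (S1 to S3) to granular cells (G1 to G3), with cells split by the gate genes (solid) or by 6 other late genes (dashed); lines are means and symbols the 3 libraries. Cnfn and Lor rise to G3 on both axes, Ivl is highest at G2 on both, and the Lce1 sum is highest at G2 on the solid line and at G3 on the dashed one.

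Detection in single granular cells does not use either axis. In cells thinned to 2000 UMIs, 96.5% ± 3.7 of those with an Lce1 UMI also had a Lor UMI, whereas 44.2% ± 4.7 of those with Lor had Lce1. The corresponding shares were 97.3% ± 2.4 and 64.8% ± 6.8 for Crct1, 97.0% ± 1.7 and 28.0% ± 0.7 for Lce6a, and 99.3% ± 1.3 and 19.3% ± 1.3 for the Lce3 genes. Cnfn and Lor overlapped about equally, with 82.1% ± 7.6 of Cnfn cells holding Lor and 86.2% ± 1.9 of Lor cells holding Cnfn. Of cells with Ivl 63.2% ± 16.8 held Lor, and of cells with Sprr1b 61.4% ± 9.9. These shares depend on how widely each gene is detected, and after thinning Cnfn was found in more granular cells than Lor (75.7% against 72.1%) at a lower level.

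Sprr transcripts sat in few cells. In thinned granular cells 6.03% ± 3.92 had Sprr1b, 4.85% ± 3.09 Sprr2h and 3.71% ± 1.24 Sprr1a, against 32.8% ± 2.4 for Ivl, and none of the 60 immune cells had any of these. Unthinned, at median UMIs of 18950.5 to 28293 against 3244 to 5102, the granular shares were 11.4%, 10.3%, 11.1% and 74.0%, and the immune shares 0, 0, 0 and 0.98%. A single spinous cell of replicate 1 held 369 of that library's 461 spinous Sprr1a UMIs. Cells with 3 or more UMIs of the stress keratins Krt6a, Krt6b and Krt16 were 24 of 1932 spinous cells (1.24%), and they held 48.2% of Sprr1a, 23.0% of Sprr1b and 80% of Sprr2h UMIs of that layer. By library the Sprr1a share was 85.9%, 25.1% and 14.9% and the Sprr1b share 55.8%, 30.4% and 11.9%, and a single cell held 37 of the 44 Sprr2h UMIs. Their part in the Sprr levels was not tested beyond leaving them out. Sprr1b had 1353, 405 and 882 CPM in these cells and 27.2, 16.1 and 104 in the other spinous cells of replicates 1 to 3. The other spinous cells were still above all basal cells of the same library (0.2, 0.3 and 4.4 CPM). Without stress-keratin cells, Sprr1b remained higher in spinous than in basal cells at log2 5.70 (edgeR adjusted p = 6.91e-10) and Sprr1a at log2 2.54 (edgeR adjusted p = 7.46e-08). In granular cells the 19 stress-keratin cells of replicate 3 had 1600 CPM of Sprr1b, against 81.3 in that library's other granular cells, and replicates 1 and 2 had 1 and 0 such cells.

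**Figure D5:**
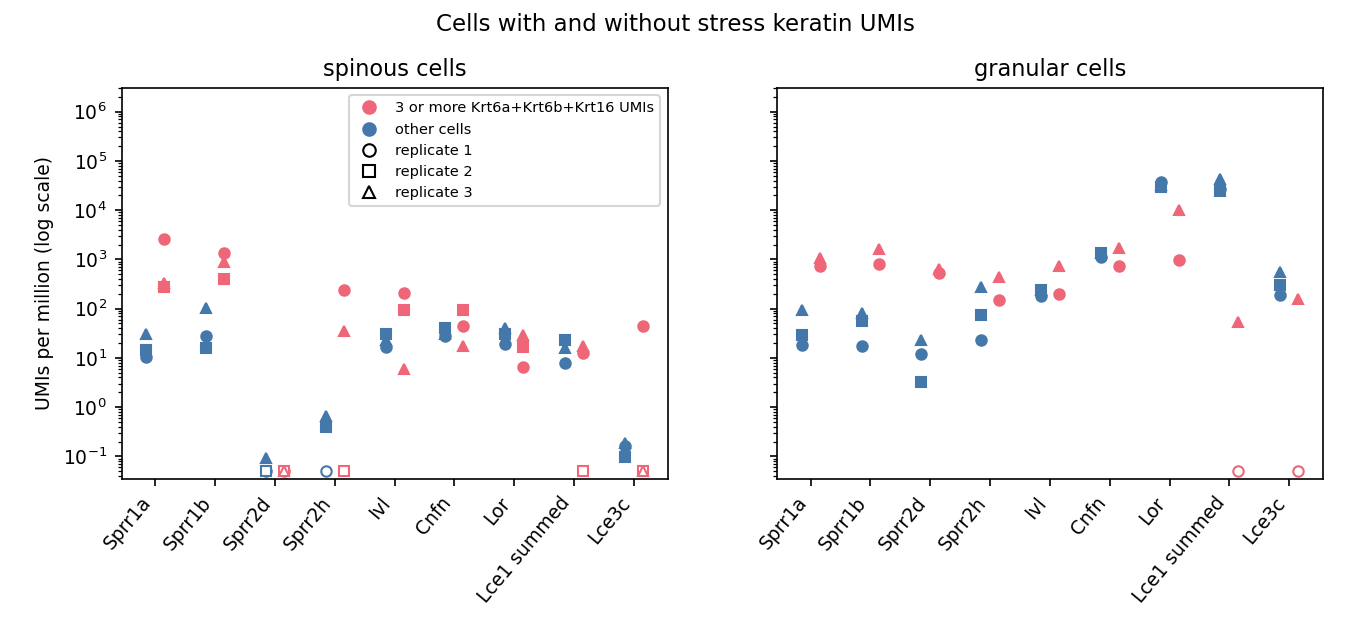
CPM (log axis) of 8 genes and the Lce1 sum in cells with 3 or more UMIs of Krt6a, Krt6b and Krt16 and in the other cells of the spinous and granular layers; symbols are libraries and open symbols at the bottom mark 0 UMIs. Stress-keratin cells number 7, 7 and 10 in the spinous layer and 1, 0 and 19 in the granular layer of replicates 1 to 3, and they lie higher for Sprr1a and Sprr1b.

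Other envelope and cross-linking genes, from a list of 26, were mostly called higher at both steps. Of 22 tested, 17 were called higher and 2 lower from basal to spinous cells, and 16 higher and 4 lower from spinous to granular cells (edgeR; all genes 33.8% and 31.7%, then 34.4% and 36.9%), with median changes of log2 2.49 and 2.34. The largest rise at the first step was Sbsn, which encodes the secreted protein suprabasin, at log2 5.94 ± 0.08 SE (edgeR adjusted p = 2.75e-18), and the largest fall was Tchh, which encodes the hair follicle protein trichohyalin, at log2 -2.08 ± 0.30 SE (edgeR adjusted p = 9.03e-06). At the second step these were Flg, for filaggrin, at log2 9.05 ± 0.22 SE (edgeR adjusted p = 3.28e-16), and S100a10, for a calcium-binding partner of annexin, at log2 -2.57 ± 0.12 SE (edgeR adjusted p = 1.81e-12). Tgm1, the main envelope transglutaminase, had 0, 0 and 0.46 CPM in basal, 6.7, 6.8 and 8.0 in spinous and 186.6, 186.4 and 191.6 CPM in granular cells. It rose by log2 10.67 ± 0.20 SE from basal to granular cells (edgeR adjusted p = 2.65e-18), the most of the list. The size and rank of that rise rest on very few basal UMIs. S100a10 fell most over that span, by log2 -4.29 ± 0.12 SE (edgeR adjusted p = 6.43e-16).

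Of 29 transcription factors of late differentiation, all tested, 18 were called higher and 5 lower from basal to spinous cells and 19 higher and 6 lower from spinous to granular cells (edgeR; medians log2 0.40 and 0.77). Over all genes 65.5% and 71.3% were called in either direction at these steps, so a large share of calls is not particular to the factors. Zfp750, a p63 target that promotes terminal differentiation, rose most at the first step, at log2 4.73 ± 0.12 SE (edgeR adjusted p = 2.34e-15), and Ets1 fell most, at log2 -3.01 ± 0.35 SE (edgeR adjusted p = 5.89e-07). Prdm1, for the repressor Blimp1, rose most at the second step, at log2 8.14 ± 0.13 SE (edgeR adjusted p = 2.57e-18), from 0.5, 0.7 and 0.9 CPM in spinous to 123.6, 149.0 and 152.9 CPM in granular cells. Its basal and spinous levels were not called different (log2 0.17 ± 0.38 SE, edgeR adjusted p = 0.764). Trp63, for the basal factor p63, fell most at that step, at log2 -1.62 ± 0.08 SE (edgeR adjusted p = 3e-12).

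Stress genes of keratinocytes formed a list of 15. Of 9 tested, 4 were called higher and 3 lower from basal to spinous cells and 5 higher and 1 lower from spinous to granular cells (edgeR; medians log2 1.27 and 2.12). These 7 and 6 calls of 9 lie near the 65.5% and 71.3% of all genes called in either direction. Gjb2, for a gap junction connexin, rose most at the first step, at log2 6.05 ± 0.41 SE (edgeR adjusted p = 5.71e-10), and Krt6a, a keratin of hair follicles and wounds, fell most, at log2 -3.27 ± 0.36 SE (edgeR adjusted p = 3.01e-07). At the second step the largest rise was that of Il1f6, a cytokine of the interleukin 1 family, with 2 spinous UMIs in all and 53.9, 54.1 and 74.9 CPM in granular cells. Stfa1, a cysteine protease inhibitor, fell by 1.05 on the log2 scale (SE 0.30, edgeR adjusted p = 0.00541).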

How the data were processed

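The 3 libraries were made with a 10x 5′ V(D)J kit, per the labels' protocols, and the deposited UMI counts per gene and barcode come from Cell Ranger 3.1.0 on mm10, per the submitters' processing notes. The members and all lists were chosen with earlier results of these data known. Of 6078 barcodes, 5340 passed the filters (395 had under 500 genes and 598 over 10% mitochondrial UMIs), with 944, 2212 and 2184 cells per library and median UMIs of 14569.5, 9237.5 and 11282. A cell meeting both the basal and the granular rule (14 cells) counted as granular. Scrublet (scanpy 1.11.5) marked 33 cells, which stayed in. Immune cells carried 5 or more UMIs of immune markers, and 1 that was also granular was not used as background.

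Raw counts were summed per library and layer, and edgeR 4.0.16 (R 4.3.3) fitted all 9 sums with its quasi-likelihood test, TMM factors, the filterByExpr filter and the library as a block, since all layers of a library share a source (deviations of the same library correlated between layers at r = 0.0895 to 0.248 across genes). Benjamini-Hochberg adjustment ran over the 11339 genes tested, and calls were made at an adjusted p of 0.05. The scripts were tested on simulated data. CPM, shares and orders of onset are descriptions over libraries. Thinning drew 2000 UMIs per cell (seed 1), leaving out shallower cells. Values per library are given for members with a mean of 100 CPM in a layer, and of each other list the called genes with the largest rise and fall are named. Intervals and floors (3 counts) cover counting error only. Alternatives were leaving out each library, no library block, total UMIs, no filter, DESeq2 1.42.0, other thresholds, every barcode, doublets, stress-keratin cells or cells of both rules left out, and thinning before the layers were set. Thinning after that, and leaving out cells with 3 or more Krt17 and Krt79 UMIs, were added after seeing the data.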

Additional observations from a re-analysis of the deposited data

How the results depend on the processing

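The alternatives gave 1868 values. Of those for counts and orders behind each comparison, 132 stayed within 1.5 times and 10 moved. Of those for single members, 1657 stayed the same, 26 gained a call, 27 lost one and 9 changed sign. A further 7 single values, of the spinous level as a percent of the granular level, moved by more than their SD. From basal to spinous cells the 5 members called higher became 18 of 23 with cells thinned to 2000 UMIs before the layers were set, and 5 to 8 with a replicate left out (8 without replicate 3). Those called lower became 1 with the keratin threshold at 1% (Lce3c, log2 -2.64) and 2 with total UMIs (Lor and Sprr2a3). From spinous to granular cells 24 to 26, and from basal to granular cells 25 to 26, were higher with a replicate left out. With the larger second step there were 17 to 21, and with the larger first step 1 to 2. The latter was 1 without stress-keratin cells, with DESeq2 and with no replicate block. Without that block, which rests on layers of a library being paired, 4, 23 and 25 members were higher in the 3 layer comparisons. Members at 1% or more of the granular level in spinous cells were 2 with either thinning and 4 to 5 with a replicate left out. Only members with at least 20 granular UMIs in every library enter this count, and thinning removes UMIs. Sprr1a and Sprr1b each had 89 in granular cells of replicate 1 before thinning. A member can therefore leave the count without falling below 1%, so the 2 cannot show that the others did. Thinning before the layers were set changed the sign of the first step of Lor (log2 1.16), Lce1a2 (3.13), Lce1c (2.48), Lce1g (2.50), Lce1h (3.83) and Lce1i (2.50). The main fit had called none of these at that step. The step difference of Cnfn changed sign too (-0.18) and was no longer called. That setting also moves cells between layers, as fewer granular cells then reach 3 UMIs of Flg2 and Hrnr. Thinning after the layers were set changed the sign of the first step of Lce1d (-0.24). The cause of the other changes was not tested. Depth limits the 14 members not tested and the order of the 19 members under 1%, whose spinous levels rest on few UMIs.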

Other observations

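The 20 granular cells with 3 or more stress-keratin UMIs, 2.49% of that layer, differed in their envelope transcripts from the other granular cells of the same libraries. They held 45.9% of the layer's Sprr1b, 37.2% of its Sprr1a and 59.9% of its Sprr2d UMIs, but 26 of 521931 Lce1 UMIs and 0.929% of its Lor UMIs. In replicate 3, which had 19 of these cells, Lce1 summed was at 54.0 CPM in them and 42297 CPM in the other granular cells. Lor was at 10027 against 32377 CPM and Ivl at 748 against 244 CPM. With 1 and 0 such cells in the other libraries, these are values of 1 library without a test, and the cells were set apart by keratins and not by the envelope genes. Granular cells with 3 or more Krt17 and Krt79 UMIs also held much Sprr. In replicate 3, 16 of them held 27.8% of Sprr1b, 33.5% of Sprr1a and 27.8% of Sprr2d UMIs. In replicate 2, without stress-keratin cells, 25 held 36% of Sprr1b, and in replicate 1, 7 held 0%. Whether the 2 sets are the same cells was not tested.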
